A study of Mus musculus with 33 samples.

Results

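The comparison set B220+ cells against common myeloid progenitors (CMP) of mouse bone marrow, in 6 of the 33 libraries of a series that profiled polyadenylated RNA across the hematopoietic hierarchy. B220+ cells, named for the B220 antigen, were grouped with the mature fractions by label only and had 3 libraries. They also held RNA of pro-B, pre-B and plasmacytoid dendritic cell genes, given below. CMP were a progenitor sort and had 3 libraries as well. Libraries were assigned to groups by their labels, and every gene that passed the count filter was compared, which came to 20464 of 56748 gene IDs. All cells came from bone marrow, and the labels give no strain, age, sex, genotype or sort gate. Per the labels' protocols, progenitors were lineage-depleted with antibodies and magnetic beads before sorting and mature fractions were not, so that the depletion and the cell population cannot be told apart. The question of the series is the part of epigenetic regulation in blood cell fate, and the CMP sort was compared here because it held high levels of lymphoid priming genes.

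B cells arise in the marrow from progenitors that first express recombination and cytokine receptor genes at low level, a state called lymphoid priming. The transcription factors E2A, EBF1 and PAX5 then switch on the B cell program, and the RAG recombinase and terminal transferase assemble the antibody heavy chain gene. A heavy chain pairs with the surrogate light chain, made of VPREB and lambda5, in the pre-B cell receptor, and after light chain rearrangement with a kappa or lambda chain in the B cell receptor, both of which signal through CD79A and CD79B. B220, the antigen of the sort, is a form of CD45 found on B lineage cells from the pro-B stage on, and in the mouse also on plasmacytoid dendritic cells.

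The B220+ libraries held 13619153, 22937898 and 27941751 counts and the CMP libraries 14172513, 19614966 and 29535657. Levels are counts relative to library size (CPM) after scaling by TMM, the trimmed mean of M-values, and folds, standard errors and adjusted p-values come from the quasi-likelihood test of edgeR, with 0.05 as the threshold. Of all genes tested, 38.3% were higher and 40.7% lower in B220+ cells, 20.9% and 22.2% by 2-fold or more, and the median log2 fold change was -0.04. With library size alone as the scaling that median was -0.26, a shift of -0.22 that touched all gene lists alike, and the medians of 6 lists near 0 changed sign. Replicate libraries differed little beyond counting noise. The chi-square per gene was 1.07 to 1.10 between B220+ libraries and 1.22 to 1.25 between CMP libraries, where counting noise alone gives 1, and changes well under 2-fold could pass. Every gene called higher or lower below passed this test. Counts of gene lists in this comparison are to be read beside the 38.3% higher and 40.7% lower among all genes. Of the 20464 genes, 16244 (79.4%) had no overlap between the groups, and wherever values of single libraries are given below the groups did not overlap, unless it is said that they did. Whether replicates were separate animals is not stated in the labels. Each p-value rests on the spread between replicates estimated over all 33 libraries of the series, and that spread may be technical. Mitochondrial genes took 2.25% of the counts in each B220+ library and 5.40% to 5.43% in CMP libraries, and their part in the results was not tested. Ptprc, the CD45 gene, averaged 862 CPM in B220+ cells and 319 CPM in CMP.

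The promoters of 4 genes on which the comparison turned are shown here, with matches to the E box (CANNTG) and to the core bound by PU.1 (GAGGAA or its complement) in capitals. Cd79a, Igll1 and Vpreb1 encode parts of the pre-B cell receptor and were over 100-fold higher in B220+ cells, whereas Dntt was lower. Each window runs from 250 bases before to 50 bases after the gene's start in RefSeq (GRCm38.p6) and is given 5′ to 3′ on the gene's own strand. The windows lie at chr7:24897247-24897546 on the plus strand, chr16:16863936-16864235 on the minus strand, chr16:16869206-16869505 on the minus strand and chr19:41029025-41029324 on the plus strand.
Cd79a: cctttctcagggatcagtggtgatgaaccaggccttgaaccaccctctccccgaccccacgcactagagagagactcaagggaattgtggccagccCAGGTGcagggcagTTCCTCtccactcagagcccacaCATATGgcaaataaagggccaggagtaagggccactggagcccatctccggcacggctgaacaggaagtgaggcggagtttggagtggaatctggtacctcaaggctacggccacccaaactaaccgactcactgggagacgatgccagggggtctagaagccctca
Igll1: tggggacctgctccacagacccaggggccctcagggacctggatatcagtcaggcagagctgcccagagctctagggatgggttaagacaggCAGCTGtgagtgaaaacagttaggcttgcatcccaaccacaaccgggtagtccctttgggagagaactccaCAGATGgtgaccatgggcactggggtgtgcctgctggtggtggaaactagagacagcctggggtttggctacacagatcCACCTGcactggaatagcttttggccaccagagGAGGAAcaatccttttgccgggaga
Vpreb1: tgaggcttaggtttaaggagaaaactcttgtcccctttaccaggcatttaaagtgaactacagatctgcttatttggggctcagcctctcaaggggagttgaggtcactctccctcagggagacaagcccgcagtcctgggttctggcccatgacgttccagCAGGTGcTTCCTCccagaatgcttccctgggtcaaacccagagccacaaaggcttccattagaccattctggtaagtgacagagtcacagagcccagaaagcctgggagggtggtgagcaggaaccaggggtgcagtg
Dntt: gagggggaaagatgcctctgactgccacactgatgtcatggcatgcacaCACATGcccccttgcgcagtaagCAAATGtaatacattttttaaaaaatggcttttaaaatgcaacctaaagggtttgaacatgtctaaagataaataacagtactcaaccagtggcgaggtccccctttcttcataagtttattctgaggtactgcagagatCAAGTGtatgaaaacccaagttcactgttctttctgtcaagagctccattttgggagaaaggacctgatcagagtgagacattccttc
On both strands, the PU.1 core was found 1 time in each of the Cd79a, Igll1 and Vpreb1 windows and not in the Dntt window, and 28.3% of 32851 RefSeq promoter windows of this length hold it. E boxes numbered 2 in Cd79a, 3 in Igll1, 1 in Vpreb1 and 3 in Dntt, and 72.3% of all windows hold at least 1. The EBF1 palindrome (TCCCNNGGGA) and the immunoglobulin octamer (ATGCAAAT) matched none of the 4 windows, and they match 0.904% and 1.74% of all windows. No match overlapped another. These are letter matches in a short window and say nothing of binding.

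The marker genes separated the sorts in opposite directions. Cd79a, the signalling subunit of the B cell receptor, had 3682, 3732 and 3709 CPM in B220+ cells, against 3.95, 6.07 and 4.59 CPM in CMP. It was 755-fold higher in B220+ cells (log2 fold change 9.56 ± 0.11 (SE), adjusted p = 1.32e-28). Dntt, which encodes the terminal transferase that adds bases at antigen receptor gene joints, had 135, 139 and 137 CPM in B220+ cells, against 2446, 2457 and 2475 CPM in CMP. It was 17.9-fold lower in B220+ cells. Flt3, the receptor tyrosine kinase of early multipotent and lymphoid progenitors, had 93.3, 89.3 and 93.5 CPM in B220+ cells, against 744, 744 and 742 CPM in CMP and was 8.08-fold lower. High Dntt and Flt3 in CMP prompted the choice of this sort, so their differences are given as a description, with no test. For all 3 genes the groups did not overlap. Because these are bulk libraries, fewer cells of a type and less RNA per cell cannot be told apart in any of these differences.

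**Figure D1:**
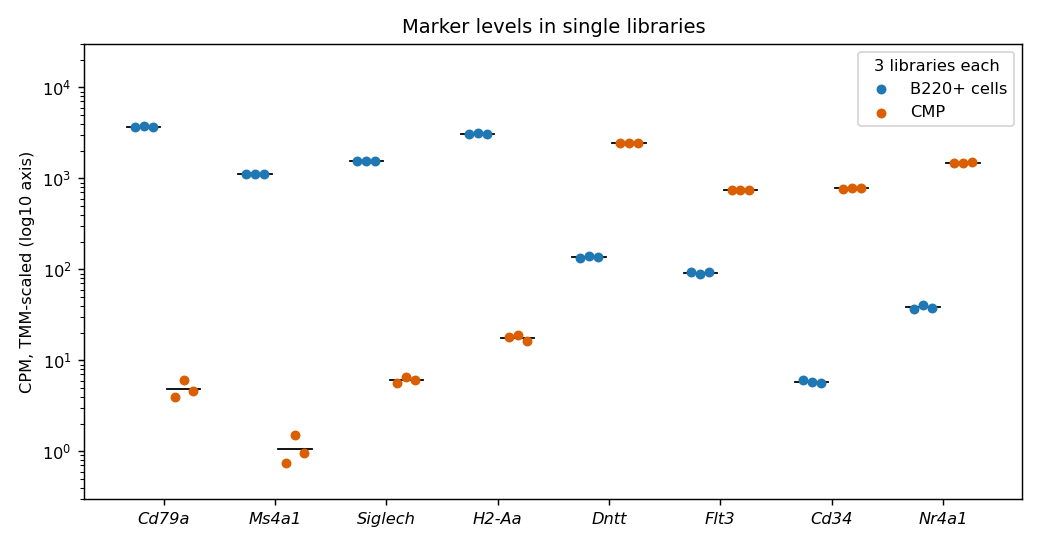
Levels of 8 genes in each library on a log10 axis (TMM-scaled CPM), with 3 B220+ libraries left of 3 CMP libraries for each gene and a bar at the group mean. Cd79a, Ms4a1, Siglech and H2-Aa sit far higher in B220+ cells, Dntt, Flt3, Cd34 and Nr4a1 far higher in CMP, and replicates lie almost on top of each other.

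Across the 11 populations of the series, Cd79a was at 3708 ± 25 CPM (SD, n = 3) in B220+ cells, 625 ± 8.2 in whole marrow (BM), 409 ± 6.0 in CD3e T cells and 4.87 ± 1.1 in CMP. Dntt was higher in CMP (2459 ± 15) than in any other population, followed by multipotent progenitors (MPP, 331 ± 7.3), common lymphoid progenitors (CLP, 222 ± 5.3) and B220+ cells (137 ± 2.2). Flt3 was likewise highest in CMP, at 743 ± 1.2 CPM in CMP, with 295 ± 3.0 in short-term hematopoietic stem cells (ST-HSC), 276 ± 1.6 in MPP and 253 ± 4.1 in CLP. CMP had Cd34 at 782 ± 7.9 CPM and Kit at 155 ± 1.7, genes that other progenitors express too. Granule genes were far lower in CMP than in GMP or MPP. Mpo, the myeloperoxidase gene of granulocyte-monocyte progenitors, was at 966 ± 5.1 in CMP, against 55147 ± 756 in granulocyte-macrophage progenitors (GMP) and 19774 ± 176 in MPP. Elane, neutrophil elastase, was at 102 ± 4.6 in CMP, against 21042 ± 612 in GMP. The 18 granulocyte-monocyte progenitor genes summed to 4559 to 4604 CPM in B220+ cells, 3336 to 3368 in CMP, 120646 to 126091 in GMP and 43962 to 44804 in MPP. With the highest Dntt and Flt3 of the series and low granule genes, the sort is called CMP by its label only.

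**Figure D2:**
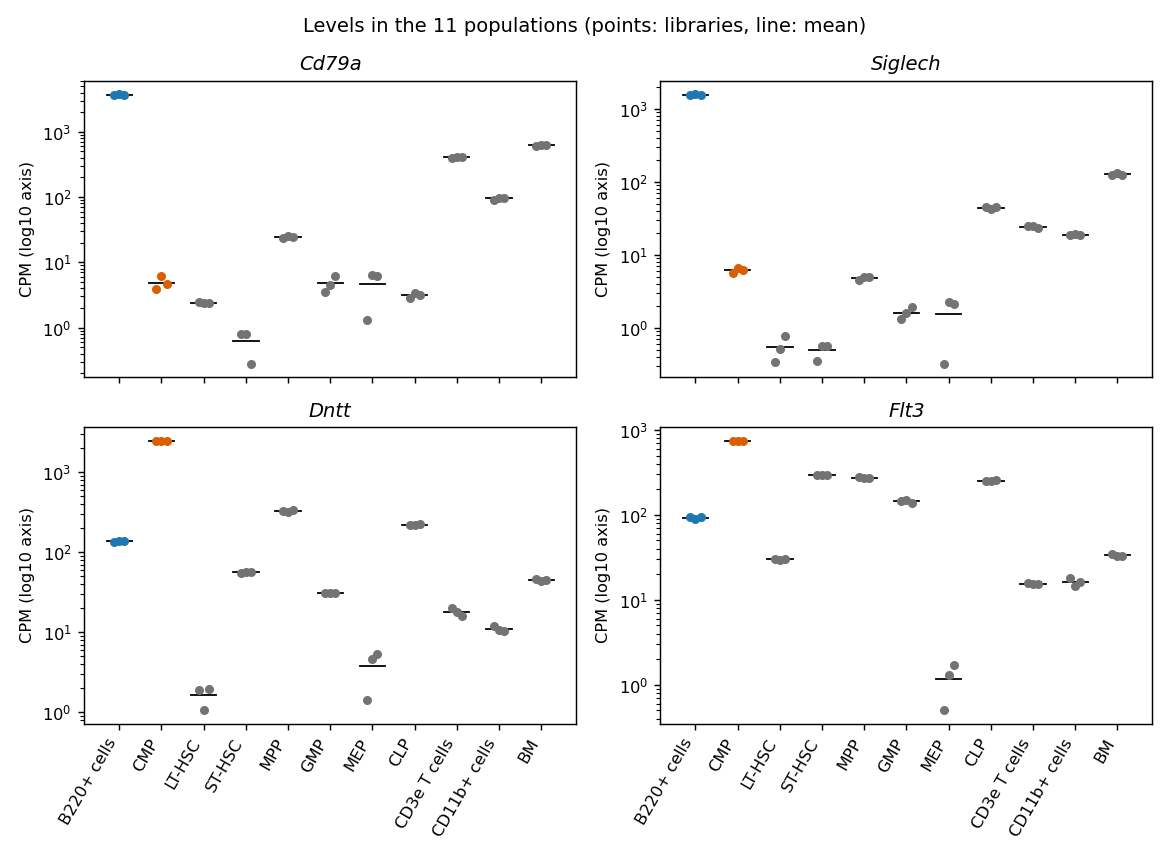
Mean levels of Cd79a, Siglech, Dntt and Flt3 in the 11 populations on a log10 axis (CPM), with 3 libraries per population as points and B220+ cells and CMP first. Cd79a and Siglech peak in B220+ cells, and Dntt and Flt3 peak in CMP.

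All measured genes of the pre-B and B cell receptor were higher in B220+ cells. In this group 12 of the 12 tested genes were higher and 0 lower in B220+ cells, against 38.3% higher and 40.7% lower among all genes, and the median log2 fold change was 8.04, against -0.04 for all genes. Cd79b, the partner of Cd79a, had 2174, 2249 and 2219.5 CPM in B220+ cells, against 38.1, 39.7 and 40.3 CPM in CMP and was 56.1-fold higher (log2 fold change 5.81 ± 0.063 (SE), adjusted p = 1.54e-29). The groups lay apart for this gene and for every gene of the receptor named here.

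Genes of the surrogate light chain, which is made at the pro-B and pre-B stages, were almost absent from CMP. Igll1, which encodes lambda5, had 169, 179 and 177 CPM in B220+ cells, against 0.580, 0.346 and 0.490 CPM in CMP, and was 372-fold higher (log2 fold change 8.54 ± 0.081 (SE), adjusted p = 3.62e-182). Vpreb1 had 82.4, 84.3 and 81.2 CPM in B220+ cells, against 0.527, 1.15 and 0.645 CPM in CMP, and was 106-fold higher (adjusted p = 5.44e-188). Vpreb1 shares most of its sequence with Vpreb2, so reads may be split between these copies and both values are uncertain. Vpreb3, a chaperone-like relative expressed in the same cells, was 777-fold higher (571 ± 6.6 CPM in B220+ cells and 0.734 ± 0.097 in CMP, SD, n = 3).

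The antibody chains rose by very different factors. Igkc, the kappa light chain constant region, had 3960.1, 4072 and 3969 CPM in B220+ cells, against 17.8, 19.1 and 12.3 CPM in CMP, and was 253-fold higher (adjusted p = 3.22e-24). The lambda chain regions Iglc2 and Iglc3, near-copies whose reads may be split, were 389.7-fold and 424-fold higher. Ighd, the delta heavy chain of mature naive B cells, was 89.7-fold higher (915 ± 9.6 CPM in B220+ cells and 10.1 ± 0.75 in CMP). Ighm, the mu heavy chain, had 8642, 8893 and 8896 CPM in B220+ cells, against 922, 961 and 962 CPM in CMP, and was 9.29-fold higher (log2 fold change 3.22 ± 0.10 (SE), adjusted p = 6.16e-20). Ighm thus had the smallest fold of the 12 genes. Against CD3e T cells, 10 of the 12 were higher and 2 lower in B220+ cells, where 34.9% of all genes were higher and 35.5% lower. The lower ones were Igkc (2.50-fold) and Iglc1, another lambda chain region (2.67-fold). CD3e T cells are called by their label only. Their libraries held plasma cell genes at a sum of 17485 to 17596 CPM, against 1441 to 1459 in B220+ cells. Neutrophil maturation genes summed to 15874 to 16050 CPM in CD3e T cells and T lineage genes to 5413 to 5468. The part of such cells in any comparison with CD3e T cells was not tested. The 12 genes summed to 47994.5 to 48865 CPM in MPP, against 21247 to 21750 in B220+ cells.

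Signalling genes downstream of the receptor also rose, though several were already present in CMP. Of these, 18 of the 20 tested genes were higher and 1 lower in B220+ cells, and 1 did not pass, with a median log2 fold change of 2.64. Cd22, an inhibitory co-receptor, had 258, 261 and 262 CPM in B220+ cells, against 0.790, 0.653 and 0.465 CPM in CMP and was 432-fold higher, and Cr2, the complement receptor of mature B cells, was 741-fold higher, on 10 counts over the 3 CMP libraries. The kinase gene Blk was 55.2-fold higher (277 ± 4.9 CPM in B220+ cells and 4.99 ± 0.39 in CMP), and the scaffold gene Bank1 52.9-fold higher.

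The kinases and adaptors used by other blood lineages too showed smaller differences. Syk, the kinase that binds CD79A and CD79B, had 526, 532 and 532 CPM in B220+ cells, against 98.5, 94.3 and 96.4 CPM in CMP and was 5.50-fold higher. Blnk, the adaptor that links SYK to BTK, was 6.62-fold higher (436 ± 3.6 CPM in B220+ cells and 65.7 ± 1.2 in CMP), and Btk was 1.67-fold higher (134 ± 4.9 CPM in B220+ cells and 80.5 ± 2.4 in CMP, adjusted p = 1.58e-60). Pik3ap1, Vav1 and Lyn, genes of shared signalling steps, had log2 fold changes of 2.08, 0.75 and 2.55. The groups did not overlap for Syk, Blnk or Btk.

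The transcription factors of B cell commitment were at low levels in CMP, and the factors of the primed state were not. In the group of B lineage factors 16 of the 22 tested genes were higher and 6 lower in B220+ cells, with a median log2 fold change of 2.13. Pax5, the factor that fixes B cell identity, had 90.1, 94.9 and 91.3 CPM in B220+ cells, against 0.158, 0.269 and 0.103 CPM in CMP, and was 532-fold higher, on 14 counts over the 3 CMP libraries (adjusted p = 4.22e-198). Ebf1, which opens B lineage chromatin, had 135, 142 and 147 CPM in B220+ cells, against 3.21, 2.65 and 2.48 CPM in CMP, and was 52.5-fold higher (adjusted p = 8.86e-198). No B220+ library overlapped a CMP library for either gene.

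Other B cell factors rose as well. Pou2af1, the OCT coactivator of immunoglobulin genes, was 645-fold higher (473 ± 11 CPM in B220+ cells and 0.742 ± 0.16 in CMP). Spib, an ETS factor of B cells and plasmacytoid dendritic cells, was 886-fold higher (1509 ± 23 CPM in B220+ cells and 1.77 ± 0.47 in CMP), and Ikzf3, Aiolos, 973-fold higher, on 10 CMP counts. Lef1, a factor of pro-B and early T cells, was 122-fold higher and Irf4, of late pre-B and activated B cells, 24.6-fold higher.

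Factors that act from the progenitor stage on differed by less. Tcf3, the E2A gene, had 341, 345 and 349.7 CPM in B220+ cells, against 59.8, 62.9 and 67.7 CPM in CMP and was 5.41-fold higher, and Foxo1, which controls Rag transcription, was 6.97-fold higher (48.9 ± 2.0 CPM in B220+ cells and 7.07 ± 0.71 in CMP). Ikzf1, Ikaros, was 1.83-fold higher (546 ± 6.7 CPM in B220+ cells and 298 ± 5.5 in CMP) and Bcl11a 1.63-fold higher. Mef2c was 1.35-fold lower (407 ± 4.6 CPM in B220+ cells and 548 ± 5.9 in CMP) and Klf2, a quiescence factor, 1.41-fold lower. Erg and Lmo2, factors of stem and early progenitor cells, were 10.3-fold and 2.72-fold lower in B220+ cells.

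Genes of the pro-B and pre-B stages were mixed in direction, whereas those of mature B cells were nearly all higher. For genes of the pro-B and pre-B stages 9 of the 15 tested genes were higher and 6 lower in B220+ cells, with a median log2 fold change of 2.21. Among all genes 38.3% were higher and 40.7% lower. Ly6d, a surface protein that marks B-committed lymphoid progenitors in the mouse, had 1494, 1492 and 1483 CPM in B220+ cells, against 9.48, 10.3 and 10.2 CPM in CMP, and was 148-fold higher (adjusted p = 5.27e-29). Cd24a, the heat-stable antigen, was 4.39-fold higher (2118 ± 14 CPM in B220+ cells and 482 ± 6.2 in CMP), and Bcl7a and Cplx2 were 9.32-fold and 174-fold higher. Cd2 was 639-fold higher (156 ± 1.5 CPM in B220+ cells and 0.255 ± 0.069 in CMP). Bst1, the BP-3 antigen, averaged 9.71 CPM in B220+ cells and 0.0432 CPM in CMP, with 3 counts in CMP in all.

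Among the 6 stage genes that were lower in B220+ cells, Arpp21 was 10.8-fold lower (log2 fold change -3.43 ± 0.080 (SE), adjusted p = 4.51e-126). Cd93 was 1.88-fold lower. Sox4 and Myb, also among the 6, are used by stem and multipotent cells too. Sox4 was 2.08-fold lower (23.1 ± 0.65 CPM in B220+ cells and 47.97 ± 1.9 in CMP) and Myb, a factor of progenitor growth, 1.61-fold lower (38.97 ± 1.2 CPM in B220+ cells and 62.4 ± 2.5 in CMP). Mme, the neutral endopeptidase CD10, was close to 0 in both sorts, at 0.0425 CPM in B220+ cells and 0.563 CPM in CMP, with 3 counts in all B220+ libraries.

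Among genes of mature B cells 15 of the 16 tested genes were higher and 1 lower in B220+ cells, with a median log2 fold change of 5.76. Ms4a1, which encodes CD20, had 1122, 1114 and 1104 CPM in B220+ cells, against 0.738, 1.498 and 0.955 CPM in CMP, and was 1030.5-fold higher (log2 fold change 10.01 ± 0.083 (SE), adjusted p = 1.33e-38). Fcer2a, the low-affinity IgE receptor CD23 of follicular B cells, was 192-fold higher (231 ± 3.6 CPM in B220+ cells and 1.21 ± 0.090 in CMP). Cxcr5, the follicle homing receptor, was 142-fold higher and Cd40, the receptor for T cell help, 184-fold higher. The BAFF receptor gene Tnfrsf13c had 509, 518 and 499 CPM in B220+ cells, against 21.8, 23.7 and 20.7 CPM in CMP and was 23.2-fold higher, so CMP held a measurable level of it. Tnfrsf13b, which encodes TACI, was 6.30-fold higher (468 ± 2.6 CPM in B220+ cells and 74.2 ± 1.4 in CMP). Fcrla, a B cell Fc receptor-like gene, was 888-fold higher.

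The exception was Cd69, the early activation antigen that keeps lymphocytes in tissue. It had 126, 123 and 126 CPM in B220+ cells, against 1844, 1870.5 and 1893 CPM in CMP, and was 14.96-fold lower in B220+ cells (log2 fold change -3.90 ± 0.029 (SE), adjusted p = 1.59e-260). Among the 11 populations Cd69 was highest in CMP (1869 ± 25 CPM, SD, n = 3), followed by GMP (379 ± 15) and MPP (374 ± 10).

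**Figure D3:**
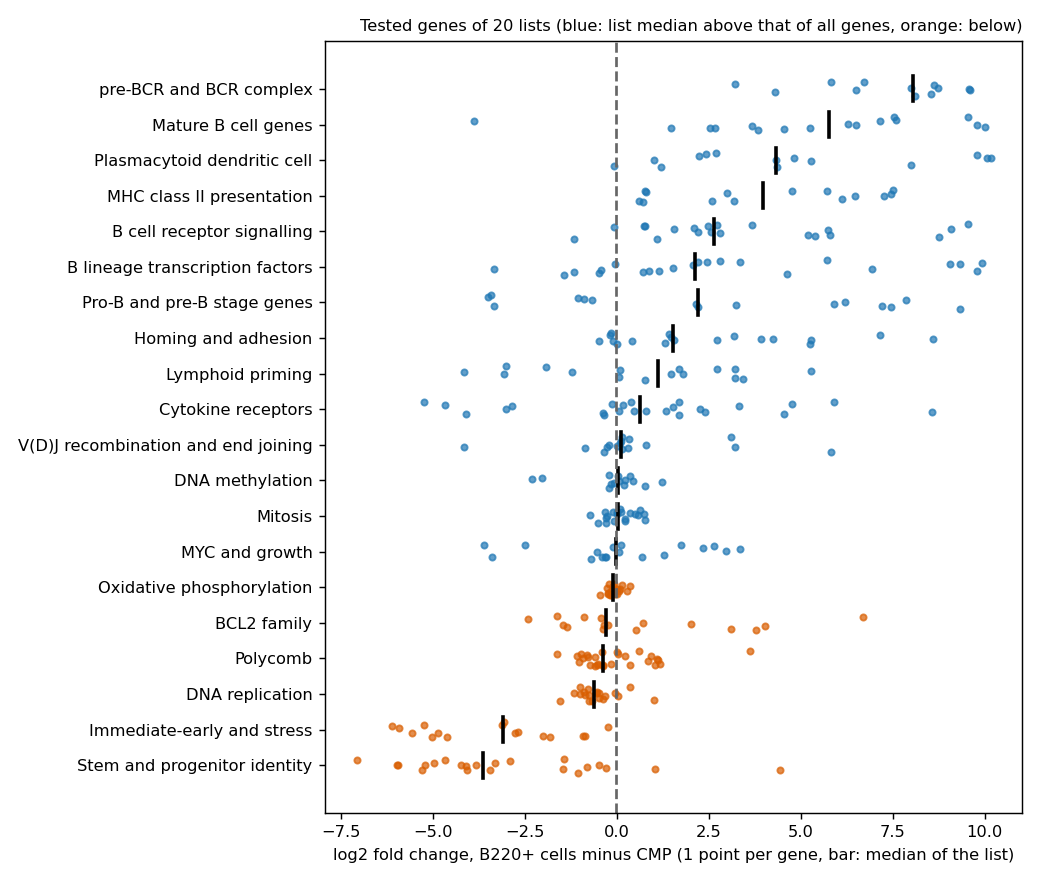
Log2 fold change of every tested gene (B220+ cells minus CMP) in 20 gene lists, 1 point per gene, with a bar at each list's median, blue points where that median is above and orange where it is below the median of all genes, and a dashed line at the median of all genes (-0.04). B cell, class II and plasmacytoid dendritic cell lists lie to the right, stem and immediate-early lists to the left, and lymphoid priming, V(D)J and mitosis lists spread over both sides.

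Lymphoid priming genes other than Dntt and Flt3 also differed in both directions. Of the whole list, 9 of the 16 tested genes were higher and 5 lower in B220+ cells, and 2 did not pass, with a median log2 fold change of 1.11. Among all genes 38.3% were higher and 40.7% lower. The 5 include Dntt and Flt3, which prompted the choice of CMP, and nothing is read from that count. Lower in B220+ cells beside Dntt and Flt3 were Notch1, the receptor of T lineage choice, at 37.1 ± 1.6 CPM in B220+ cells and 143 ± 7.7 in CMP (3.85-fold lower), and Satb1, a chromatin organiser of lymphoid progenitors, 2.34-fold lower. Il7r, the interleukin-7 receptor needed by mouse pro-B cells, had 142, 134 and 136 CPM in B220+ cells, against 42.1, 42.5 and 44.1 CPM in CMP and was 3.18-fold higher (log2 fold change 1.67 ± 0.038 (SE), adjusted p = 9.6e-128). Ccr9, a chemokine receptor of lymphoid progenitors and plasmacytoid dendritic cells, was 38.5-fold higher (399.8 ± 0.50 CPM in B220+ cells and 10.4 ± 0.49 in CMP). Gpr183 and Lsp1 were 10.7-fold and 3.47-fold higher. Gimap6 averaged 403 CPM in B220+ cells and 389.5 CPM in CMP and did not pass (log2 fold change 0.05, adjusted p = 0.0834), but its call depended on the setting. It passed as higher with DESeq2, limma-voom, relative log expression factors, only both populations fitted, the replicate block, no count filter and the GC content and length trend taken out (log2 fold changes 0.05 to 0.12), and as lower with library size alone (-0.18, adjusted p = 1.17e-11).

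The recombination machinery, a list that shares Dntt, Rag1 and Rag2 with the priming genes, also held genes of both directions. Of the V(D)J recombination and end joining genes 8 of the 16 tested genes were higher and 5 lower in B220+ cells, and 3 did not pass, with a median log2 fold change of 0.12. Among all genes 38.3% were higher and 40.7% lower. The 5 include Dntt, which prompted the choice of CMP, and nothing is read from that count. Rag1, the catalytic subunit of the recombinase, had 50.4, 51.7 and 51.5 CPM in B220+ cells, against 5.48, 5.61 and 5.57 CPM in CMP, and was 9.20-fold higher (log2 fold change 3.20 ± 0.071 (SE), adjusted p = 7.08e-132). Rag2, its obligate partner, had 25.3, 25.7 and 27.02 CPM in B220+ cells, against 26.3, 23.7 and 24.5 CPM in CMP, its groups overlapped, and it did not pass (log2 fold change 0.08, adjusted p = 0.264), and its call depended on the setting. It passed as lower with library size alone as the scaling (log2 fold change -0.15, adjusted p = 0.0172), and as higher with a GC content and length trend taken out (0.22, adjusted p = 0.000349) and with no count filter (0.15, adjusted p = 0.0455). The Rag2 difference was 0.08 ± 0.063 (SE) on the log2 scale, against 3.20 for Rag1.

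Among the end joining genes, Polm, a polymerase that acts at light chain joints in the mouse, had 80.5, 83.6 and 79.7 CPM in B220+ cells, against 1.37, 1.61 and 1.37 CPM in CMP, and was 56.05-fold higher (adjusted p = 1.33e-190). Lig4, the ligase of the pathway, was 8.56-fold higher (24.9 ± 0.75 CPM in B220+ cells and 2.93 ± 0.19 in CMP), and Dclre1c, the Artemis nuclease that opens coding-end hairpins, 1.72-fold higher. Poll, a related polymerase, was 1.83-fold lower (18.6 ± 1.0 CPM in B220+ cells and 34.2 ± 1.6 in CMP) and Xrcc5, the Ku80 gene, 1.22-fold lower. Hmgb1, a DNA-bending cofactor of RAG, averaged 835 CPM in B220+ cells and 833 CPM in CMP (log2 fold change 0.00, adjusted p = 0.902).

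The choice of progenitor sort changed what the priming genes showed. CLP, like CMP, is called by its label only. In CLP libraries, mast cell, basophil and eosinophil genes summed to 9923 to 10379 CPM, against 64.7 to 70.8 in CMP. Stromal and endothelial genes summed to 2349 to 2482 CPM in CLP, against 231 to 238 in CMP. The part of such cells in the differences below was not tested. The comparisons of B220+ cells with CMP and with CLP share the B220+ libraries, so their values are set side by side and the difference is tested as CMP minus CLP. Dntt had a log2 fold change of -4.16 ± 0.062 (SE) against CMP and -0.69 ± 0.062 against CLP, and CMP minus CLP was 3.47 ± 0.059. For Flt3 the values were -3.01 ± 0.031 (SE) against CMP and -1.46 ± 0.031 against CLP, with 1.56 ± 0.028 for CMP minus CLP, both genes again as a description. Rag2 was 0.08 against CMP and 2.52 ± 0.086 against CLP, with 2.45 ± 0.086 for CMP minus CLP (adjusted p = 3.16e-85). Rag1 was 3.20 ± 0.071 (SE) against CMP and 1.88 ± 0.063 against CLP, and CMP minus CLP was -1.32 ± 0.087 (adjusted p = 2.34e-38). Il7r was 1.67 ± 0.038 (SE) against CMP and 1.58 ± 0.039 against CLP, with CMP minus CLP at -0.09 ± 0.044 (adjusted p = 0.039). That small Il7r difference between progenitors did not pass with DESeq2 (adjusted p = 0.137), without CLP replicate 1 or 3 (0.0742 and 0.396) or without CMP replicate 1 or 2 (0.0978 and 0.101), and its sign turned when only both populations were fitted (log2 fold change 0.03, adjusted p = 0.497).

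Over the whole priming list, which includes the genes that prompted the choice of CMP, 10 of 16 genes were higher and 6 lower in CMP than in CLP, where 38.9% of all genes were higher and 43.2% lower, and nothing is read from that count. Cd69 was at -3.90 for B220+ cells against CMP and 0.04 against CLP, with CMP minus CLP at 3.94 ± 0.029 (adjusted p = 9.02e-261). Cells of the CLP sort had more B lineage transcription factor RNA than CMP for Pax5 (CMP minus CLP -4.15 ± 0.25, adjusted p = 1.43e-42), Ikzf3 (-7.10, adjusted p = 3.42e-127) and Ebf1 (-1.01, adjusted p = 4.36e-15). With a trend on GC content and transcript length taken out, the Ebf1 difference was -0.16 and did not pass (adjusted p = 0.231).

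**Figure D4:**
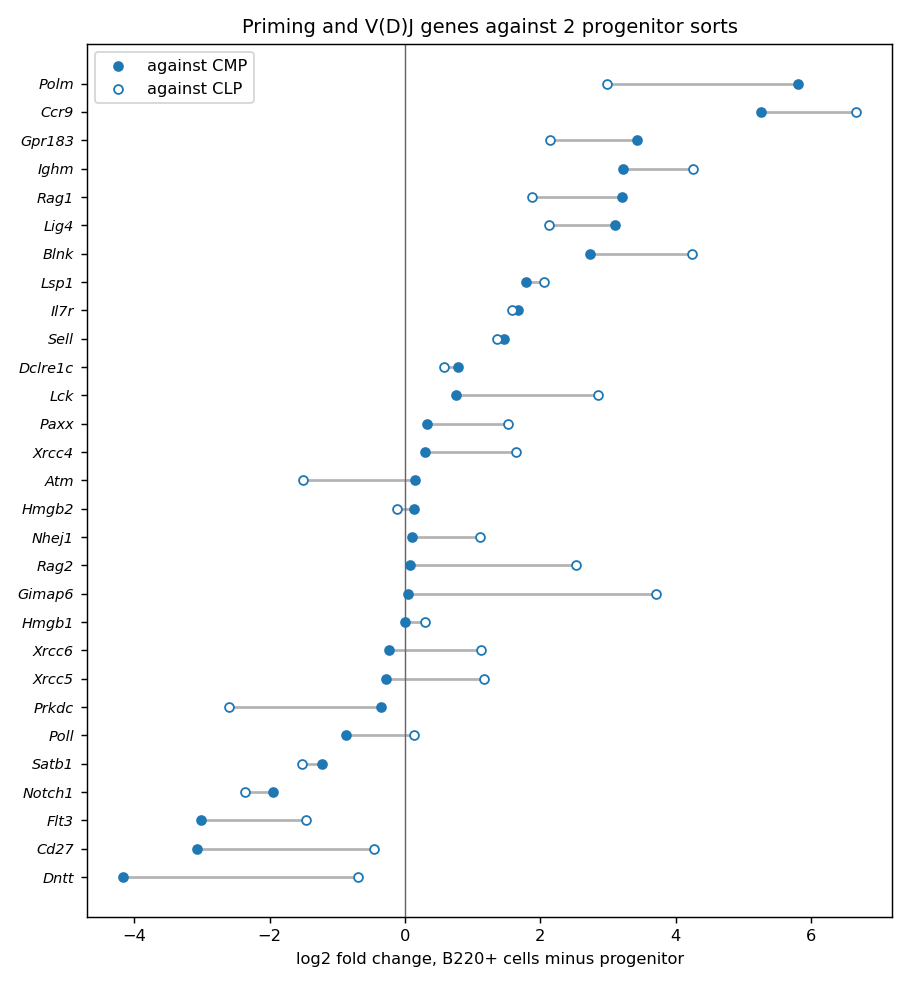
Log2 fold change of the lymphoid priming and V(D)J genes in B220+ cells against CMP (filled circles) and against CLP (open circles), with a line joining the values of 1 gene. Both comparisons use the same 3 B220+ libraries. Dntt, Flt3 and Rag2 lie further left against CMP, and Rag1, Polm and Lig4 further right.

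Antigen presentation genes had 1 direction. All 14 tested genes of the MHC class II pathway were higher in B220+ cells, with a median log2 fold change of 3.97. H2-Aa, a class II chain, had 3085, 3123 and 3112 CPM in B220+ cells, against 17.9, 18.9 and 16.5 CPM in CMP, and was 176-fold higher (log2 fold change 7.46 ± 0.076 (SE), adjusted p = 3.7e-30). Cd74, the invariant chain, had 7254, 7409.9 and 7385 CPM in B220+ cells, against 45.7, 52.1 and 46.2 CPM in CMP, and was 153-fold higher. Ciita, the transactivator that class II genes require, was 88.4-fold higher (172 ± 0.54 CPM in B220+ cells and 1.92 ± 0.40 in CMP). H2-DMb2 and H2-Oa, peptide-loading genes, were 52.1-fold and 7.92-fold higher, and H2-DMa 1.73-fold. Against CD3e T cells, 9 of the 14 were higher and 5 lower in B220+ cells, and H2-Ab1 was at 3246 ± 35 CPM in B220+ cells, against 4009 ± 45 in CD3e T cells (log2 fold change -0.30 ± 0.024, adjusted p = 1.54e-28).

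Plasmacytoid dendritic cell genes, of a B220-positive interferon-producing cell, were prominent among the rises. In this group 13 of the 14 tested genes were higher and 1 lower in B220+ cells, with a median log2 fold change of 4.33. Siglech, a sialic acid-binding lectin that marks these cells in the mouse, had 1547, 1566 and 1562 CPM in B220+ cells, against 5.58, 6.53 and 6.14 CPM in CMP, and was 254-fold higher (log2 fold change 7.99 ± 0.077 (SE), adjusted p = 7.73e-31). Klk1, a kallikrein expressed by them in the mouse, had 426, 438 and 429 CPM in B220+ cells, against 0.0527, 0.691 and 0.310 CPM in CMP, and was 1148-fold higher (adjusted p = 8.15e-51). Its near-copy Klk1b27 averaged 49.7 CPM in B220+ cells and 0.0256 CPM in CMP, with 2 counts in CMP, and reads may be shared between the copies. Cd209d, a C-type lectin, was 1065-fold higher (57.1 ± 1.7 CPM in B220+ cells and 0.0518 ± 0.026 in CMP), on 4 CMP counts.

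Other genes of the group were clearly present in CMP and differed less. Bst2, an interferon-induced surface protein, was 6.40-fold higher (489 ± 6.0 CPM in B220+ cells and 76.3 ± 2.3 in CMP) and Cox6a2, a muscle-type cytochrome oxidase subunit, 4.65-fold higher. Tcf4, the E2-2 gene that specifies these cells, had 274, 286 and 285 CPM in B220+ cells, against 136, 140.4 and 145 CPM in CMP and was higher (adjusted p = 6.79e-97). Runx2 was 1.06-fold lower (102 ± 1.8 CPM in B220+ cells and 108 ± 4.2 in CMP, adjusted p = 0.0149), the single member that fell. That call was lost without B220+ replicate 1 (adjusted p = 0.0589), without CMP replicate 3 (adjusted p = 0.209), with no count filter (adjusted p = 0.847) and with a GC content and length trend taken out (adjusted p = 0.118). The summed level of the 14 genes was 5613 to 5714 CPM in B220+ libraries and 449 to 475 CPM in CMP libraries. Elsewhere it was highest in BM, at 802 to 819.6 CPM.

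The signal also set B220+ cells apart from the fraction labelled CD3e T cells. Against CD3e T cells, 13 of the 14 genes were higher in B220+ cells and 0 lower, with a median log2 fold change of 2.63, where 34.9% of all genes were higher, 35.5% lower and the median was 0. Siglech was at 1558 ± 10 CPM in B220+ cells, against 23.98 ± 1.0 in CD3e T cells (log2 fold change 6.02 ± 0.066, adjusted p = 1.74e-29). Several genes of the list, Spib and Ccr9 among them, are expressed by B cells or lymphoid progenitors too, and the part of dendritic cells in each difference was not tested.

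The 10 largest rises among genes with at least 10 CPM in the higher sort, ranked by log2 fold change, were Ngfr, Klk1b27, Klk1, Cd209d, Ms4a1, Ikzf3, Prss30, Fcrla, Spib and Slamf9. Ngfr, a neurotrophin receptor, had 10.6, 11.2 and 10.8 CPM in B220+ cells and no count in CMP, which makes it at least 304-fold higher against a floor of 3 counts over the CMP libraries (adjusted p = 4.04e-84). Slamf9, a SLAM family receptor, was 825-fold higher (103 ± 2.2 CPM in B220+ cells and 0.117 ± 0.068 in CMP), on 10 CMP counts. Prss30, a serine protease gene, averaged 28.5 CPM in B220+ cells and 0.0256 CPM in CMP, with 2 counts in CMP.

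Stem and progenitor genes fell almost throughout. Of these, 2 of the 22 tested genes were higher and 20 lower in B220+ cells, with a median log2 fold change of -3.65. Cd34, a surface sialomucin of progenitors and part of the usual CMP gate, had 6.09, 5.79 and 5.57 CPM in B220+ cells, against 773, 788 and 784 CPM in CMP, and was 136-fold lower (log2 fold change -7.08 ± 0.075 (SE), adjusted p = 6.65e-30). Kit, the stem cell factor receptor and likewise a gate marker, had 6.28, 5.90 and 5.98 CPM in B220+ cells, against 153, 156 and 155 CPM in CMP, and was 25.7-fold lower. The groups lay far apart for both. Since such gates commonly use both proteins, their direction follows the sort where they were used, and the labels do not name the gate.

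Stem cell transcription factors showed the same direction. Hoxa9 was 17.1-fold lower (3.35 ± 0.38 CPM in B220+ cells and 57.8 ± 1.5 in CMP), Meis1, its cofactor, 9.97-fold lower (7.47 ± 0.63 CPM in B220+ cells and 73.1 ± 1.8 in CMP) and Hlf, of self-renewing cells, 64.1-fold lower (0.253 ± 0.087 CPM in B220+ cells and 15.99 ± 1.3 in CMP). Mecom was 37.2-fold lower. The 2 exceptions were Ly6a and Tek. Ly6a, which encodes Sca-1 and is also made by lymphocytes, had 336, 317 and 319 CPM in B220+ cells, against 15.5, 15.1 and 14.8 CPM in CMP and was 21.4-fold higher. Tek, the angiopoietin receptor, averaged 0.447 CPM in B220+ cells and 0.235 CPM in CMP and passed with an adjusted p of 0.0139. Its call was lost without B220+ replicate 3 (adjusted p = 0.152), without CMP replicate 2 (adjusted p = 0.142) and with library size alone as the scaling (adjusted p = 0.0557).

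The 10 largest falls were Nwd1, Lif, Slc27a2, Bpifc, Sema3d, Hnf4a, Ccn1, Creb5, Cd34 and Slc35d3. Creb5, a CREB family factor, had 0.449, 0.424 and 0.190 CPM in B220+ cells, against 46.2, 46.3 and 47.4 CPM in CMP, and was 139.6-fold lower (adjusted p = 1.48e-162). Slc35d3, a transporter of platelet granules, was 101-fold lower (0.742 ± 0.13 CPM in B220+ cells and 74.9 ± 1.4 in CMP) and Hnf4a, a nuclear receptor best known in liver, 166-fold lower (0.126 ± 0.030 CPM in B220+ cells and 21.2 ± 1.1 in CMP). Bpifc, Sema3d, a semaphorin, and Ccn1, a matrix protein gene, were 207-fold, 181-fold and 146-fold lower, each on fewer than 10 B220+ counts. Lif, a cytokine gene, averaged 0.0363 CPM in B220+ cells and 17.04 CPM in CMP, with 3 counts in all B220+ libraries. Nwd1 averaged 0.0319 CPM in B220+ cells and 13.9 CPM in CMP, and Slc27a2, a fatty acid transporter gene, averaged 0.0211 CPM in B220+ cells and 11.8 CPM in CMP, each with 2 B220+ counts.

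Cytokine receptors differed in both directions. Of these, 15 of the 24 tested genes were higher and 8 lower in B220+ cells, and 1 did not pass, with a median log2 fold change of 0.62. Among all genes 38.3% were higher and 40.7% lower. The 8 include Flt3, which prompted the choice of CMP. Besides Il7r and Tnfrsf13c, Il10ra was 9.86-fold higher (160.2 ± 0.80 CPM in B220+ cells and 16.1 ± 0.89 in CMP) and Il2rg, the common gamma chain, 2.51-fold higher (152 ± 2.0 CPM in B220+ cells and 60.5 ± 1.9 in CMP). Besides Kit and Flt3, Epor, the erythropoietin receptor, was 7.26-fold lower (3.52 ± 0.63 CPM in B220+ cells and 25.7 ± 0.54 in CMP) and Csf3r, the G-CSF receptor, 1.28-fold lower. Il3ra averaged 10.3 CPM in B220+ cells and 9.77 CPM in CMP and did not pass (log2 fold change 0.05, adjusted p = 0.529).

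Most homing genes were higher in B220+ cells. Of these, 13 of the 18 tested genes were higher and 4 lower in B220+ cells, and 1 did not pass, with a median log2 fold change of 1.51. Among all genes 38.3% were higher and 40.7% lower. Ccr7, the receptor that guides lymphocytes to lymph nodes, had 273, 281 and 282 CPM in B220+ cells, against 6.11, 7.76 and 7.64 CPM in CMP, and was 38.1-fold higher. S1pr1, the receptor for exit from tissue into blood, was 18.97-fold higher (222 ± 2.6 CPM in B220+ cells and 11.7 ± 0.26 in CMP), and Itgb2 and Itgb7, leukocyte integrin chains, were 14.95-fold and 6.55-fold higher. Cxcr4, which retains cells in marrow, was 2.65-fold higher (28.4 ± 1.3 CPM in B220+ cells and 10.7 ± 1.1 in CMP). Cd44, a hyaluronan receptor, was 1.41-fold lower and Itga4, an integrin chain, 1.12-fold lower, but Itga4 was higher in B220+ cells with a GC content and length trend taken out (log2 fold change 0.15, adjusted p = 1.77e-09).

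Survival and death genes of the BCL2 family differed one by one. Here 7 of the 16 tested genes were higher and 8 lower in B220+ cells, and 1 did not pass, shares near the 38.3% and 40.7% of all genes, with a median log2 fold change of -0.31. Bcl2l1, which encodes BCL-XL, had 126, 127 and 131 CPM in B220+ cells, against 29.7, 32.6 and 31.8 CPM in CMP and was 4.06-fold higher. Bcl2 itself had 34.2, 33.02 and 33.7 CPM in B220+ cells, against 84.6, 86.01 and 90.4 CPM in CMP and was 2.60-fold lower. The pro-death genes Bcl2l11 (BIM) and Pmaip1 (NOXA) were 3.09-fold and 2.78-fold lower, and Mcl1 was 1.61-fold higher. Hrk was in the list but not tested, because it did not pass the count filter.

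Immediate-early genes, which answer to stimulation within minutes, were higher in CMP. Of these, 0 of the 16 tested genes was higher and 15 were lower in B220+ cells, with a median log2 fold change of -3.11. Nr4a1, an orphan nuclear receptor, had 37.1, 40.2 and 38.1 CPM in B220+ cells, against 1462, 1481 and 1510.0 CPM in CMP, and was 38.5-fold lower (log2 fold change -5.27 ± 0.033 (SE), adjusted p = 3.32e-216). Atf3, a stress factor, was 69.8-fold lower (3.88 ± 0.36 CPM in B220+ cells and 276 ± 5.9 in CMP) and Ier3 60.7-fold lower. Fos had 357, 368 and 367 CPM in B220+ cells, against 3004, 3054 and 3119 CPM in CMP and was 8.40-fold lower. Jund was the member that did not pass, at 6.57 CPM in B220+ cells and 7.86 CPM in CMP (log2 fold change -0.25, adjusted p = 0.157). These genes also answer to cell handling, and lineage depletion went with the CMP libraries, so that handling and cell state cannot be told apart. Against CLP, another lineage-depleted sort, 14 of 16 were higher and 2 lower in CMP, where 38.9% of all genes were higher and 43.2% lower. The 16 genes summed to 12865 to 13287 CPM in CMP, 4278 to 4561 in CLP and 1093 to 1129 in megakaryocyte-erythroid progenitors (MEP). In mature fractions the sums were 1735 to 1767 CPM in B220+ cells, 5684 to 5730 in CD3e T cells and 9142 to 9357 in CD11b+ cells. Nr4a1 was at 1484 ± 24 CPM (SD, n = 3) in CMP and 34.2 ± 1.4 in CLP, and at 1436 ± 0.86 in long-term hematopoietic stem cells (LT-HSC).

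MYC and growth genes had no common direction, with shares near those of all genes. Among MYC and growth genes 8 of the 18 tested genes were higher and 8 lower in B220+ cells, and 2 did not pass, with a median log2 fold change of -0.02. Myc had 63.8, 65.9 and 67.3 CPM in B220+ cells, against 371, 369 and 383 CPM in CMP and was 5.69-fold lower, and Mycn was 10.6-fold lower. The CDK inhibitor gene Cdkn1a was 12.3-fold lower (11.3 ± 0.91 CPM in B220+ cells and 137 ± 3.7 in CMP) and Cdkn2c 10.2-fold higher (28.4 ± 0.73 CPM in B220+ cells and 2.76 ± 0.24 in CMP). The D cyclins diverged, with Ccnd3, the cyclin pre-B cells depend on in the mouse, 3.36-fold higher (746 ± 17 CPM in B220+ cells and 222 ± 4.8 in CMP), Ccnd1 7.72-fold higher and Ccnd2 1.47-fold lower. Btg1, an antiproliferative gene, was 6.16-fold higher (428 ± 13 CPM in B220+ cells and 69.5 ± 0.99 in CMP).

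Ribosome biogenesis genes fell, with 17 of 18 lower, 0 higher and a median log2 fold change of -0.89. Gnl3, nucleostemin, was 3.07-fold lower (46.9 ± 2.3 CPM in B220+ cells and 145 ± 1.4 in CMP), and Bop1 did not pass (log2 fold change -0.04, adjusted p = 0.266). Of the DNA replication genes 2 of the 20 tested genes were higher and 16 lower in B220+ cells, and 2 did not pass, with a median of -0.64. Cdc6, which licenses origins, was 2.92-fold lower (35.1 ± 0.35 CPM in B220+ cells and 102 ± 1.4 in CMP), Rrm2, a ribonucleotide reductase subunit, 2.002-fold higher (271 ± 5.2 CPM in B220+ cells and 135 ± 1.5 in CMP), and Pcna did not pass (log2 fold change 0.02, adjusted p = 0.454). Of the mitosis genes 10 of the 20 tested genes were higher and 8 lower in B220+ cells, and 2 did not pass, with a median of 0.04, Ccna2 being 1.67-fold higher and Cenpe 1.68-fold lower. Among all genes 38.3% were higher and 40.7% lower, and nothing is read from the mitosis count. Of the oxidative phosphorylation genes encoded in the nucleus 4 of the 19 tested genes were higher and 12 lower in B220+ cells, and 3 did not pass, with a median of -0.11.

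Genes that write and erase chromatin marks, the subject of the series, differed in both directions. Among all genes 38.3% were higher and 40.7% lower, and nothing is read from the counts of the chromatin lists below. Of the DNA methylation genes 6 of the 14 tested genes were higher and 5 lower in B220+ cells, and 3 did not pass, and of the Polycomb genes 10 of the 28 tested genes were higher and 16 lower in B220+ cells, and 2 did not pass, with medians of 0.04 and -0.38. Dnmt3b, a de novo methyltransferase, had 12.4, 13.96 and 13.5 CPM in B220+ cells, against 64.2, 67.4 and 68.2 CPM in CMP, and was 4.97-fold lower (log2 fold change -2.31 ± 0.050 (SE), adjusted p = 8.83e-135). Tet1, which oxidises methylcytosine, was 4.09-fold lower (8.83 ± 0.095 CPM in B220+ cells and 36.1 ± 1.2 in CMP), whereas Dnmt3a was 1.16-fold lower, a call lost with the GC content and length trend taken out (adjusted p = 0.256), and Tet2 did not pass (log2 fold change -0.08, adjusted p = 0.119). The Tet2 call depended on the setting, as lower with library size alone (-0.31, adjusted p = 6.96e-10) and without B220+ replicate 3 (-0.12, adjusted p = 0.0492), and as higher with the GC content and length trend taken out (0.15, adjusted p = 0.00206). Cbx7, a chromodomain subunit of Polycomb complex PRC1, had 76.7, 75.3 and 78.03 CPM in B220+ cells, against 5.80, 6.26 and 6.40 CPM in CMP, and was 12.3-fold higher. Ezh1, the methyltransferase of resting cells, was 2.14-fold higher (82.6 ± 0.79 CPM in B220+ cells and 38.5 ± 1.0 in CMP), and Bmi1 1.53-fold lower.

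Of the histone demethylases 8 of the 16 tested genes were higher and 5 lower in B220+ cells, and 3 did not pass, and of the deacetylases and acetyltransferases 8 of the 21 tested genes were higher and 6 lower in B220+ cells, and 7 did not pass, with medians of 0.07 and 0.01. Kdm6b, which removes the Polycomb mark on H3K27, was 6.55-fold lower (13.2 ± 0.43 CPM in B220+ cells and 86.2 ± 2.5 in CMP) and Jmjd1c 2.10-fold lower. Kdm1b was 3.77-fold higher (87.7 ± 0.99 CPM in B220+ cells and 23.1 ± 0.75 in CMP) and Kdm7a 2.72-fold higher. Hdac5, a class II deacetylase, was 3.84-fold higher (159.8 ± 3.8 CPM in B220+ cells and 41.4 ± 2.1 in CMP) and Hdac10 2.39-fold higher, while Kat2a, an acetyltransferase, was 1.61-fold lower.

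Transcripts of cells outside the B lineage were higher in the B220+ fraction. Of the neutrophil maturation genes 17 of the 18 tested genes were higher and 1 lower in B220+ cells, with a median log2 fold change of 6.36. Their summed level was 10808 to 11179.7 CPM in B220+ libraries and 112 to 177 CPM in CMP libraries, where 1 gene of the list had no count, against 253092 to 257251 CPM in CD11b+ cells. S100a9, a calcium-binding protein of neutrophils, had 2168, 2136 and 2136 CPM in B220+ cells, against 18.4, 18.1 and 9.32 CPM in CMP. For monocyte and macrophage genes 16 of the 18 tested genes were higher and 1 lower in B220+ cells, and 1 did not pass, and the sums were 4668 to 4781 CPM in B220+ libraries and 468 to 498 CPM in CMP libraries. Lyz2, the lysozyme gene of myeloid cells, was 16.9-fold higher (2773 ± 37 CPM in B220+ cells and 164 ± 8.6 in CMP).

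Lymphoid and plasma cell transcripts followed at lower sums. For T lineage genes 15 of the 18 tested genes were higher and 2 lower in B220+ cells, and 1 did not pass, with sums of 677 to 707 CPM in B220+ libraries and 221 to 229 CPM in CMP libraries. NK cell genes were higher in 12 of 12 cases, with sums of 327 to 342 CPM in B220+ libraries and 21.3 to 22.1 CPM in CMP libraries. For plasma cell genes 11 of the 12 tested genes were higher and 1 lower in B220+ cells, with sums of 1441 to 1459 CPM in B220+ libraries and 301 to 305 CPM in CMP libraries. Igha, the IgA heavy chain, was 65.1-fold higher (563 ± 6.3 CPM in B220+ cells and 9.23 ± 3.0 in CMP).

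Erythroid and megakaryocyte genes split by stage. Of the erythroid genes 6 of the 20 tested genes were higher and 13 lower in B220+ cells, and 1 did not pass, and the sums were 5192 to 5377 CPM in B220+ libraries and 2245 to 2321 CPM in CMP libraries. Klf1, the erythroid factor of progenitors, was 9.69-fold lower (7.21 ± 0.33 CPM in B220+ cells and 69.3 ± 1.2 in CMP), while the globin genes, near-copies whose reads may be split, were higher, Hba-a1 by 10.7-fold and Hbb-bs by 19.1-fold. Of the megakaryocyte genes 2 of the 14 tested genes were higher and 11 lower in B220+ cells, and 1 did not pass, with a median log2 fold change of -2.65. Mast cell, basophil and eosinophil genes summed to 241 to 255 CPM in B220+ libraries and 64.7 to 70.8 CPM in CMP libraries, with 8 of 11 higher. Of the granulocyte-monocyte progenitor genes 10 of the 18 tested genes were higher and 8 lower in B220+ cells (median log2 fold change 0.22). Of the stromal and endothelial genes 5 of the 12 tested genes were higher and 7 lower, where 38.3% of all genes were higher and 40.7% lower. At least 1 count was found in both sorts for every gene of these lists except the neutrophil gene named as without count, and the part of such cells in the results above was not tested.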

How the data were processed

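Polyadenylated RNA of 33 mouse bone marrow libraries was sequenced, 3 for each of 11 populations, and the authors deposited 1 table of raw read counts per gene. Per the submitters' processing notes, cutadapt, HISAT2, HTSeq and DESeq2 were used with build mm39. Their versions, the annotation and the strand setting are not given in the sources used here, so reads of overlapping antisense genes cannot be told apart. All 33 columns matched a library, and 52073 of 56748 gene IDs matched a symbol in GENCODE M21 (GRCm38), which was used for names only. Promoter sequences came from RefSeq (GRCm38.p6).

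In R 4.3.3, edgeR 4.0.16 filtered genes by expression per population, applied TMM scaling and fitted 1 mean per population over all 33 libraries (robust quasi-likelihood, 22 residual degrees of freedom, common biological coefficient of variation 2.67%). P-values were adjusted by Benjamini-Hochberg over all genes tested. The SE is the absolute log2 fold change divided by the square root of the F statistic. Groups came from the labels, and B220+ cells were compared with CMP and, for context, with CD3e T cells, and CMP with CLP. Named genes are the markers, members of 33 gene lists and the 10 largest changes each way among genes with at least 10 CPM in the higher group whose groups did not overlap, leaving out predicted, mitochondrial, ribosomal protein and antigen receptor segment genes. Genes outside this rule, such as Ptprc, were picked after their values had been seen. The comparison and the lists were chosen with earlier results of these data known. The alternatives were other scalings, no count filter, DESeq2 1.42.0, limma-voom (limma 3.58.1), fitting only the populations compared, a replicate block, a test against a 2-fold change and leaving out each library, and, chosen after seeing the data, removing from each library its trend on GC content and length, properties found for 96.5% of the genes. On counts simulated for B220+ cells and CMP over 19847 genes, 84% of 50 genes changed by 1.5-fold and 98% of 50 changed by 2-fold were called with the right sign, as were 100% at 4-fold and at 8-fold, and 0.0153% of 19647 unchanged genes were called. In those counts 19647 of 19847 genes were unchanged, whereas 38.3% of the 20464 genes tested were higher and 40.7% lower. The rate of wrong calls with that many genes changed, and the part of scaling in it, was not tested. Depth limits genes with a few counts, for which the counts are printed.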

Additional observations from a re-analysis of the deposited data

How the results depend on the processing

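For B220+ cells minus CMP, DESeq2, limma-voom, relative log expression factors, fitting only both populations, and taking out a GC content and length trend all gave counts within 1.5 times those reported, as did library size alone (6511 higher and 9914 lower, against 7835 and 8321). With no count filter, 7979 genes were lower by 2-fold or more, against 4536, because 44595 genes entered the test. A test against a 2-fold change called 3654 genes higher and 3599 lower. Leaving out 1 library in turn gave 7535 to 7762 genes higher and 7886 to 8187 lower, 4179 to 4274 and 4369 to 4482 by 2-fold or more. The same gave 7690 to 7900 higher and 8556 to 8715 lower for CMP minus CLP, and 6671 to 6996 higher and 6904 to 7075 lower for B220+ cells minus CD3e T cells.

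No source says that replicate numbers pair the libraries. Libraries with the same number correlated at 0.091, 0.013 and 0.106 in their deviations from the group means. With 3 libraries a group, these values cannot decide whether the libraries were paired. With the replicate number as a block, 7846 genes were higher and 8316 lower in B220+ cells than in CMP, Gimap6 passed as higher (0.05, adjusted p = 0.0268), and every B220+ library but replicate 2 correlated best with the CMP library of its own number.

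With library size alone, 6 list medians changed sign, to -0.19 for DNA methylation, -0.0083 for granulocyte-monocyte progenitor genes, -0.21 for deacetylases and acetyltransferases, -0.16 for histone demethylases, -0.19 for mitosis and -0.11 for V(D)J genes. Gimap6 (-0.18), Hmgb1 (-0.22), Il3ra (-0.17), Pcna (-0.20) and Rag2 (-0.15), which had not passed, then passed as lower in B220+ cells, as did Bop1, Jund and Tet2. With the GC content and length trend taken out, the calls went the other way, with Gimap6 (0.11), Hmgb1 (0.16), Pcna (0.16), Rag2 (0.22), Itga4 (0.15) and Tet2 (0.15) passing as higher, so that these genes have no settled direction. The Il7r difference of CMP minus CLP was 0.048 in that setting, 0.0007 with library size alone and 0.032 with only both populations. The causes were not tested. Relative log expression factors shifted list medians by 0.0037 to 0.0114. Of 169 named genes in B220+ cells minus CMP, 159 (library size alone) to 169 kept their direction and their side of the threshold under each alternative, except for the test against a 2-fold change, which 27 missed.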

Other observations

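A few T and NK cell genes differed between B220+ cells and CD3e T cells against the direction of their lists. Cd4, the co-receptor gene of helper T cells that mouse plasmacytoid dendritic cells also express, was at 204 ± 5.3 CPM (SD, n = 3) in B220+ cells, against 144 ± 2.5 in CD3e T cells, and passed as higher in B220+ cells (edgeR log2 fold change 0.50 ± 0.034 (SE), adjusted p = 4.1e-36). In CMP it was at 5.64 ± 0.37. Cd3e, which encodes a chain of the T cell receptor complex, was at 9.14 ± 0.58 CPM in B220+ cells, against 202 ± 3.5 in CD3e T cells (log2 fold change -4.45 ± 0.051, adjusted p = 2.32e-208). Among the 18 T lineage genes, 1 was higher and 17 were lower in B220+ cells than in CD3e T cells, and the gene that was higher was Cd4. Cd8a was at 35.8 ± 0.11 CPM in B220+ cells, against 226 ± 2.6 in CD3e T cells.

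Among NK cell genes, Gzma, the granzyme A gene, was at 37.6 ± 2.2 CPM in B220+ cells, against 12.2 ± 0.51 in CD3e T cells (log2 fold change 1.62 ± 0.075, adjusted p = 2.38e-54), whereas 10 of the 12 NK genes were lower in B220+ cells. Cox6a2, the cytochrome oxidase subunit described above, was at 134 ± 4.1 CPM in B220+ cells, 28.9 ± 0.999 in CMP and 2.53 ± 0.25 in CD3e T cells. These genes were picked for mention after their values were seen.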
